A study of Mus musculus with 4 samples.

Results

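DNA replication and mitosis genes are described here over 4 Affymetrix arrays of mouse embryonic stem cells. The genes were taken from a list of 41 symbols, and a probe set counted as a member when the platform annotation gave it 1 symbol and that symbol was on the list. This left 36 genes with 50 probe sets, of 8251 genes and 12422 probe sets on the array that are not array controls. Pole, Ccnb1, Hmmr and Bub1b had no probe set of their own in the annotation used here. For Tyms the 2 probe sets were shared with a pseudogene, and they were left out.

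The arrays hold total RNA of E14tg2a cells, a mouse stem cell line grown without feeder cells. The control cells were sampled on LIF at 3000 U/ml and again 4 days after it was taken away. Cells with constitutively active Akt (Akt cells, named Akt12 in the sample titles) were sampled in the same 2 media. LIF is the cytokine that holds mouse stem cells in the undifferentiated state, and Akt is a kinase downstream of phosphoinositide 3-kinase. The labels do not say whether the Akt cells are 1 clone, which promoter or Akt form was used, or if an empty vector is present in the control cells. Each group is 1 array, so no difference between arrays has a replicate check. In RNA from whole cultures, fewer dividing cells and less of a transcript in each cell cannot be told apart.

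Before a cell divides it copies its genome once. In G1 the MCM helicase is loaded onto origins with the help of Cdc6. In S phase Cdc45 joins the helicase, primase and the polymerases build the new strands, and the clamp Pcna and the enzymes Fen1 and Lig1 finish them. Mitosis then runs on Cdk1 with the B cyclins, the Aurora and Polo kinases, and a spindle checkpoint that is released through Cdc20. Genes of the first wave are known targets of E2F factors, and genes of the later wave are known targets of complexes that bind CHR and CCAAT elements. Mouse embryonic stem cells have a short G1 and express these genes at high levels.

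Intensities were quantile normalized over all probe sets, and values under 15.8, the 40th percentile, were set to that floor. Of the 50 member probe sets, 47 were above the floor on at least 1 array and 39 on all 4. Those 39 stand for 35 of the 36 genes. The exception is Mcm6, whose only probe set was deposited at 1.7 and 1.7 in control cells (with LIF, then without) and at 2.6 and 5.9 in Akt cells. Pairs of values below follow the same order. Its partner genes in the helicase were measured well above the floor on every array, so no level of Mcm6 is given. Also below the floor on every array were 1 of 3 probe sets of Bub1 and 1 of 2 of Rrm1. Another 8 probe sets were above the floor on some arrays only, and each belongs to a gene with a brighter probe set. Where a gene has several, the values below are those of its brightest probe set unless stated.

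For control cells without LIF the array stood apart from the other 3. Over 6511 probe sets above the floor on all 4 arrays its log2 differences to them had SDs of 0.695 to 0.845, against 0.409 to 0.521 among the others. Its actin 3′ to 5′ signal ratio was 1.66, against 2.33 to 3.04 on the others. Its Gapdh ratio went the other way, at 3.19 against 2.46 to 3.05. The part of these ratios, which are read as signs of RNA quality, in the values below was not tested. Stem cell identity was checked with 10 markers. All 10 were above the floor on the arrays of control cells with LIF and of both Akt groups, and their summed normalized intensity was 11050, 12526 and 7811 there. Without LIF the control cells had 9 above the floor, Nr0b1 being at it, and a sum of 4087. On that array 5 of 5 trophoblast markers summed to 1544, against 203 to 409 on the other arrays. The keratin genes Krt8 (767.9) and Krt18 (627.0) made up most of that sum, while Cdx2 was at 18.0, Eomes at 55.8 and Hand1 at 75.2. There 8 of 10 fibroblast markers summed to 640.1, with Fap and Postn at the floor, against 241 to 318. The endoderm markers summed to 290.8 there, with Gata6, Afp and Foxa2 at the floor, against 59.2 to 392.2 elsewhere. Neural markers summed to 538.6, with Sox1, Pax6 and Map2 at the floor, against 577 to 740. What part cells of other types have in the values below was not tested.

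Some sequence elements were more frequent in promoters of the members than over all genes. Promoter sequence was not used to choose the members. The choice is still not independent of it, since such genes are known targets of factors that bind these elements. RefSeq promoters (GRCm38.p6, 250 bases before to 50 after the start) were found for 32 of the 36 genes. An E2F-type element, here TTCCCGC or TTCGCGC or TTGCCGC or TTGGCGC on either strand, occurred in 15 of these 32 genes, or 46.9%, against 10.9% of 27025 genes with a promoter in the table. Matches may overlap each other, and a gene counted when any of its promoters held the element. A CHR-type element, TTTGAA or TTCGAA, occurred in 14 of 32 (43.8%, against 21.7%), and CCAAT in 23 of 32 (71.9%, against 41.1%). E2F-type elements were found in 5 of 7 helicase and licensing genes, 5 of 8 polymerase and fork genes and none of 6 mitotic kinase and checkpoint genes. CHR-type elements were found in 3 of 7, 2 of 8 and 4 of 6 of the same groups, and CCAAT in 6 of 7, 4 of 8 and 4 of 6. Of 5 cyclin and cyclin-dependent kinase genes, 2 had an E2F-type element, 2 a CHR-type element and 4 CCAAT. In the same order the counts were 2, 0 and 2 of 3 nucleotide supply genes. They were 1, 3 and 3 of 3 chromosome and spindle genes. A match is a description of these letters and not a binding site.

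Promoters of 4 members are printed 5′ to 3′ on the strand of the gene, with the elements in capitals. Mcm5 and Pold1 are shown because they are among the replication genes with the most negative log2 differences after LIF withdrawal in control cells. Pold2 had the most negative difference and is not printed, and no E2F-type element was found in its promoters. Aurka is shown because it has the most negative difference of the mitotic genes, and Ccnb2 because it is a mitotic gene that differed little. Mcm5 lies at chr8:75109259-75109558 on the plus strand, and Pold1 at chr7:44548766-44549065, Aurka at chr2:172370521-172370820 and Ccnb2 at chr9:70421505-70421804 on the minus strand.
Mcm5 promoter: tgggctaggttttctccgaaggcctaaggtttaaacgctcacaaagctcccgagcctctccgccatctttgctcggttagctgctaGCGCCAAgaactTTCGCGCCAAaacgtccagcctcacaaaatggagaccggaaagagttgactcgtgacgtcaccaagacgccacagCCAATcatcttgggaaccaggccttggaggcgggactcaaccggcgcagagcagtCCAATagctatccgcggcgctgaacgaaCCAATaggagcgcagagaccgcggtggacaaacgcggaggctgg
Pold1 promoter: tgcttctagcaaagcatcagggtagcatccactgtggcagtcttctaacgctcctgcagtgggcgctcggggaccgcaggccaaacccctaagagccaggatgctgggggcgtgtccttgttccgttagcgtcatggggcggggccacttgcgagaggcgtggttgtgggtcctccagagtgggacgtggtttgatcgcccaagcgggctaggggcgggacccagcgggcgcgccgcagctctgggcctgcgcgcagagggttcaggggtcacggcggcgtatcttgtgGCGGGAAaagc
Aurka promoter: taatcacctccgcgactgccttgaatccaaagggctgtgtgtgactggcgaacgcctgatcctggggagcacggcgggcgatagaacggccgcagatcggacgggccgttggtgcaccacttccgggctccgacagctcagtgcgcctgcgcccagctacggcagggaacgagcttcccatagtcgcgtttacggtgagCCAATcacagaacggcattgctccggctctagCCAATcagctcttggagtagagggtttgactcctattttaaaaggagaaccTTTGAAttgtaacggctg
Ccnb2 promoter: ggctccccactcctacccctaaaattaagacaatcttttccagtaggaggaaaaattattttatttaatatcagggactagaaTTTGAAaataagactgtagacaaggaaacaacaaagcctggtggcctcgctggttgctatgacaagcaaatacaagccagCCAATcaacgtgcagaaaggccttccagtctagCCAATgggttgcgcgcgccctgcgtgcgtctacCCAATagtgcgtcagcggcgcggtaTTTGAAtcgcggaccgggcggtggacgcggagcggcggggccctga

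In Mcm5 the capitals mark E2F-type elements starting at -164, -152 and -149 from the start site and CCAAT elements at -77, -22 and 7. Pold1 has a single E2F-type element, at position 40, and none of the others. Aurka and Ccnb2 have no E2F-type element. Aurka has CCAAT at -51 and -19 and a CHR-type element at 33. Ccnb2 has CCAAT at -87, -54 and -21 and CHR-type elements at -167 and 5.

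LIF withdrawal in control cells went with lower values of nearly all members, mostly by less than 2-fold. Without LIF, 32 of the 35 genes measured on every array were lower, with a median log2 difference of -0.44. Over all 5027 genes measured that way, 53.4% were lower and the median was -0.05. Replication genes had the lowest values, and cyclins and cyclin-dependent kinases differed least.

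Counted by probe set, 2 of 45 members passed 2-fold downward and none upward. The shares over all 7985 probe sets were 6.19% lower and 7.19% higher, so the 2-fold count says nothing particular about the members. At 1.5-fold, a size added after the values were seen, 17 of 45 (37.8%) were lower and none higher, where 17.1% and 16.2% of all probe sets were. The log2 differences of probe sets of 1 gene spread with an SD of 0.40 in this comparison, over 747 genes with several probe sets. Most single members lay within 2 such SDs of 0.

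The MCM genes encode the helicase that unwinds DNA at the fork. Mcm5 had a normalized intensity of 689.1 with LIF and 383.7 without in control cells, and 729.4 and 677.2 in Akt cells. The control array without LIF was thus the low one of 4, and the others lay close together. The log2 difference in control cells was -0.84, or 1.80-fold lower. Mcm3 had the same lowest and highest arrays, at 979 and 559.4 in control cells and 1128.5 and 1033.8 in Akt cells, and was 1.75-fold lower. Its other probe set was 1.62-fold lower.

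Mcm7 was at 302 and 171.6 in control cells and at 249 and 266.9 in Akt cells, and Mcm2 at 547.4 and 331.4, and 615.4 and 554.4. They were 1.76-fold and 1.65-fold lower in control cells without LIF, again the lowest array for each. Mcm4 differed less, at 536.2 and 408.3 in control cells and 463.8 and 601.2 in Akt cells, a log2 difference of -0.39 in control cells. Over the 7 probe sets of MCM genes in this comparison the median was -0.72, with values from -0.84 to -0.39. Among them is a dim probe set of Mcm5, at 24.1 with LIF in control cells and at the floor on every other array. Its value of -0.61 is limited by the floor.

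Cdc45, the helicase activator, was at 161.4 and 114.2 in control cells and at 202.1 and 173.9 in Akt cells. Its log2 difference in control cells was -0.50. Cdc6, which loads the MCM ring, was at 296.4 and 263.9 in control cells and at 266.2 and 421.2 in Akt cells. It differed by -0.17 in control cells, and the array of Akt cells without LIF was the high one. The control array without LIF was the lowest of 4 for 8 of 8 licensing and helicase probe sets above the floor on all arrays.

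**Figure D1:**
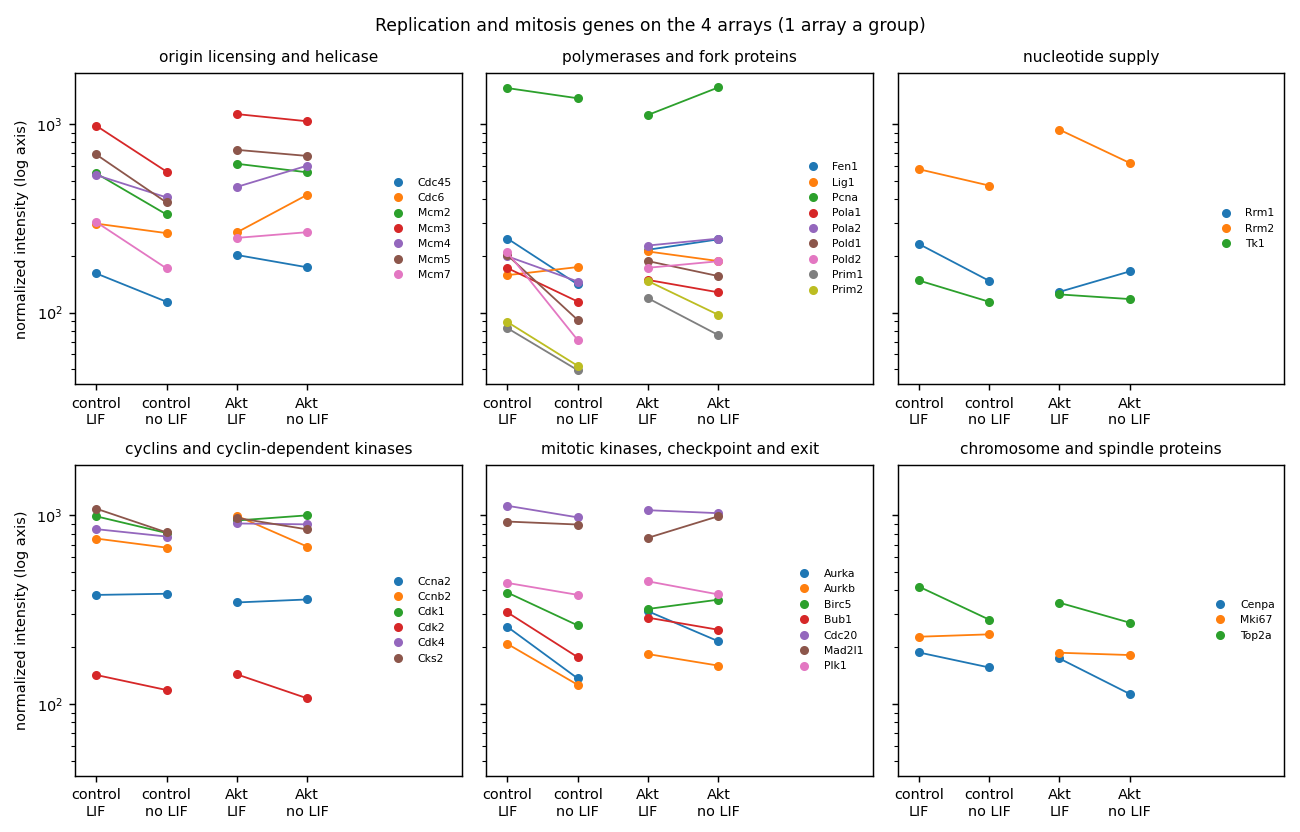
Normalized intensity (log axis) of the brightest probe set of each of 35 genes on the 4 arrays, 1 panel per role, with a line joining the 2 media of each line of cells. In the helicase panel all 7 genes go down from left to right in control cells, and Cdc6, Mcm4 and Mcm7 go up in Akt cells.

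Among polymerases and fork proteins, the 2 members past 2-fold were subunits of DNA polymerase delta, which copies the lagging strand. Pold2, the accessory subunit, was at 208.5 with LIF and 71.4 without in control cells, and at 172.9 and 187.2 in Akt cells. Only the control array without LIF was low, and the log2 difference was -1.55, or 2.92-fold lower. Its only probe set carries the suffix r, which Affymetrix gave where some design rules were dropped. Pold1, the catalytic subunit, was at 201.6 and 91.3 in control cells and at 187.5 and 156.2 in Akt cells, 2.21-fold lower in control cells. Its other probe set lay near the floor, at 15.8 to 17.9, and differed by 0.19.

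Fen1, the nuclease that trims Okazaki fragments, was at 246.8 and 141.1 in control cells and at 215.5 and 244.6 in Akt cells. Control cells without LIF had the only low value, 1.75-fold below that with LIF. The primase subunits Prim1 and Prim2, which start each strand, had another order. Prim1 was at 82.7 and 49.5 in control cells and at 119.1 and 76 in Akt cells, and Prim2 at 89.1 and 52.2, and 146.9 and 97.3. Both were lower without LIF in each line of cells, by 1.67-fold and 1.71-fold in control cells.

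Of the polymerase alpha subunits, Pola1 was at 172.2 and 114.4 in control cells and at 149 and 128.1 in Akt cells, and Pola2 at 198.8 and 146.2, and 226.9 and 246.9. Their log2 differences in control cells were -0.59 and -0.44. The sliding clamp Pcna differed by -0.18, at 1550 and 1368.6 in control cells and 1117.5 and 1563.5 in Akt cells. The ligase Lig1, which seals the lagging strand, was the exception of the group, at 158 and 174.4 in control cells and 210.9 and 187.6 in Akt cells. Its difference of 0.14 turned negative, to -0.17 at the lowest, when arrays were left unscaled or scaled to the hybridization controls.

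Nucleotide supply genes were lower by smaller amounts. Rrm1, the large subunit of ribonucleotide reductase, was at 231.3 and 147.5 in control cells and at 128.8 and 165.4 in Akt cells, a log2 difference of -0.65 in control cells. The small subunit Rrm2 was at 576 and 471.8 in control cells and at 933.1 and 621.6 in Akt cells, with -0.29. The thymidine kinase Tk1 was at 148.1 and 114.2, and 124.9 and 118, with -0.38. For Rrm1 the array of Akt cells with LIF was the lowest, unlike Rrm2, for which it was the highest.

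Among mitotic kinases and checkpoint genes the differences in control cells ran from -0.91 to -0.05, and all 7 genes were lower without LIF. Aurka, a kinase of the spindle poles, was at 256 and 136.4 in control cells and at 309.8 and 214.8 in Akt cells, 1.88-fold lower in control cells. Bub1, a kinase of the spindle checkpoint, was at 305.5 and 176.8 in control cells and at 286.5 and 247.2 in Akt cells, 1.73-fold lower. For both genes the control array without LIF was the low one.

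Aurkb and Birc5 encode the kinase and the survivin subunit of the chromosomal passenger complex. Aurkb was at 207.9 and 126.2 in control cells and at 183.7 and 159.6 in Akt cells, 1.65-fold lower in control cells. Birc5 was at 389.2 and 260.6, and 318.8 and 357.1, 1.49-fold lower. Plk1, the Polo kinase, has 3 probe sets above the floor, and they differed by -0.21, -0.21 and -0.59 in control cells. Cdc20, which activates the anaphase-promoting complex, differed by -0.20, and the checkpoint protein gene Mad2l1 by -0.05.

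The cyclin and cyclin-dependent kinase genes had a median of -0.21 over 6 genes in control cells. Cdk1, the mitotic kinase, was at 987.8 and 805.8 in control cells and at 938.5 and 999.4 in Akt cells, a difference of -0.29. Ccna2 hardly differed between any arrays, at 378.3 and 383.7 in control cells and 345.1 and 357.9 in Akt cells. Ccnb2 was at 752.9 and 673.8, and 993.7 and 682.6, with the array of Akt cells with LIF as the high one. Cks2, which binds cyclin-dependent kinases, differed by -0.42, Cdk2 by -0.27 and Cdk4 by -0.13. The largest of these is close to the SD of 0.40 between probe sets of 1 gene.

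Top2a, the topoisomerase that untangles chromosomes, was at 419 and 280 in control cells and at 344 and 269.6 in Akt cells, a difference of -0.58 in control cells. Cenpa, the histone H3 variant of centromeres, was at 187.5 and 156.1, and 174.2 and 113.0. Mki67, a marker of cycling cells, was at 227.1 and 233.8 in control cells and at 186.8 and 181.6 in Akt cells. For all 3 genes the lowest array was that of Akt cells without LIF, not that of control cells without LIF. The differences of Mki67 (0.04) and Ccna2 (0.02) in control cells turned negative when arrays were left unscaled or scaled to the hybridization controls, and that of Ccna2 also with trimmed mean scaling.

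**Figure D2:**
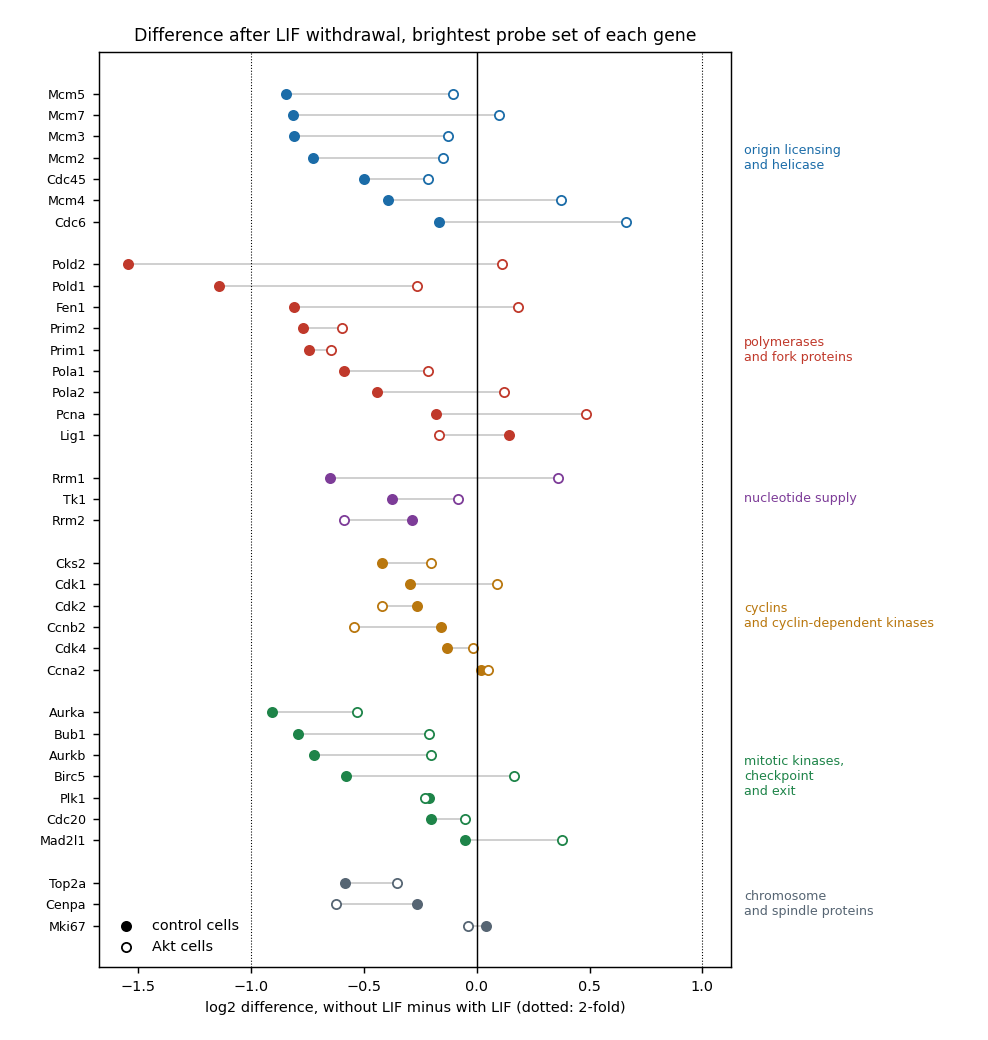
Log2 difference after LIF withdrawal in control cells (filled) and Akt cells (open) for the brightest probe set of 35 genes, ordered by role. Filled points lie below 0 for 32 genes and pass -1 for Pold1 and Pold2, and no open point passes -1 or 1.

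LIF withdrawal in Akt cells left the members near their starting values. The median over the 35 genes was -0.13, and 23 lay below 0 and 12 above, against a median of 0.01 and 48.5% below 0 over all genes. No member of 44 probe sets was 2-fold different, where 3.51% of all probe sets were lower and 2.87% higher. At 1.5-fold 4 members were lower and 1 higher, or 9.09% and 2.27%, against 10.5% and 10.7% of all probe sets. These shares are near or below the background. The sign counts depend on the scaling, since 24 of 39 probe sets were lower here and 36 of 39 with scaling to the hybridization controls.

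The 4 members 1.5-fold lower in Akt cells were Prim1 (-0.65), Cenpa (-0.63), Prim2 (-0.59) and Rrm2 (-0.59). Ccnb2 (-0.54) and Aurka (-0.53) followed. The member 1.5-fold higher was Cdc6 (0.66), and among the brightest probe sets Pcna (0.48), Mad2l1 (0.38) and Mcm4 (0.37) came next. The MCM genes as a group showed no common direction in Akt cells, with 3 of 6 probe sets lower and a median of -0.04. The dim probe set of Mcm5 was at the floor on both arrays and is not counted here.

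The responses of the lines differed most for the replication genes. Subtracting the response of control cells from that of Akt cells gave values above 0 for 28 of 35 genes, with a median of 0.38, against 52.1% and a median of 0.04 over all genes. The 7 licensing and helicase genes all had positive values, from 0.28 for Cdc45 to 0.92 for Mcm7. Pold2 (1.66), Rrm1 (1.01), Fen1 (0.99), Mcm7 (0.92) and Pold1 (0.88) had the largest values. The median was 0.07 for cyclins and cyclin-dependent kinases and -0.08 for the 3 chromosome and spindle genes. Cenpa, Ccnb2, Lig1 and Rrm2 had values from -0.38 to -0.30. This difference contains the control array without LIF, so a low value on that array alone gives a positive value. It cannot tell that array from a difference between the lines. With 1 array a group it leaves no residual error and was not tested.

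Akt cells and control cells were also compared in the same medium, which asks how the lines differ. With LIF the members differed little. No member of 45 was 2-fold different, where 3.28% of all probe sets were higher and 3.51% lower. At 1.5-fold 3 were higher and 2 lower, or 6.67% and 4.44%, against 11.3% and 11.7%. The median over 35 genes was -0.10, with 21 lower and 14 higher. The members furthest apart were Rrm1, 1.80-fold lower in Akt cells, and Prim2 and Rrm2, 1.65-fold and 1.62-fold higher. Over the 39 probe sets above the floor on all arrays the median was -0.09, and it was -0.65 unscaled and 0.00 with scaling to the hybridization controls. Relative to all 6511 probe sets measured that way it was -0.09, -0.11 and -0.10 in the same order.

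Without LIF the Akt cells had higher values of most members. Of 35 genes, 30 were higher, with a median of 0.34, against 56.3% and 0.08 over all genes. This comparison shares the control array without LIF with LIF withdrawal in control cells, and the shared array alone could give opposite values, so each comparison's values are given and no relation between them is drawn. By probe set 1 of 45 was at least 2-fold higher and none lower, where 5.59% of all probe sets were higher and 7.85% lower. At 1.5-fold 15 (33.3%) were higher and none lower, against 16.2% and 15.0% of all. Unscaled, 17 of 39 members were lower, with a median of 0.17 beside -0.22 over all probe sets above the floor on all 4 arrays.

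Pold2 was 2.62-fold higher in Akt cells without LIF, at 187.2 against 71.4. All 8 licensing and helicase probe sets were higher, by 0.56 to 0.89 in log2. Mcm3 was 1.85-fold higher, Mcm5 1.76-fold and Fen1 1.73-fold. Prim2 was 1.86-fold higher, and it was also higher in Akt cells with LIF. Of the 2 probe sets of Cdk4, the dimmer was 1.83-fold higher and the brighter 1.16-fold. Mitotic kinase and checkpoint genes had a median of 0.34, while cyclins and cyclin-dependent kinases had 0.04. Cenpa, Mki67 and Top2a were lower in Akt cells, at -0.47, -0.36 and -0.05.

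**Figure D3:**
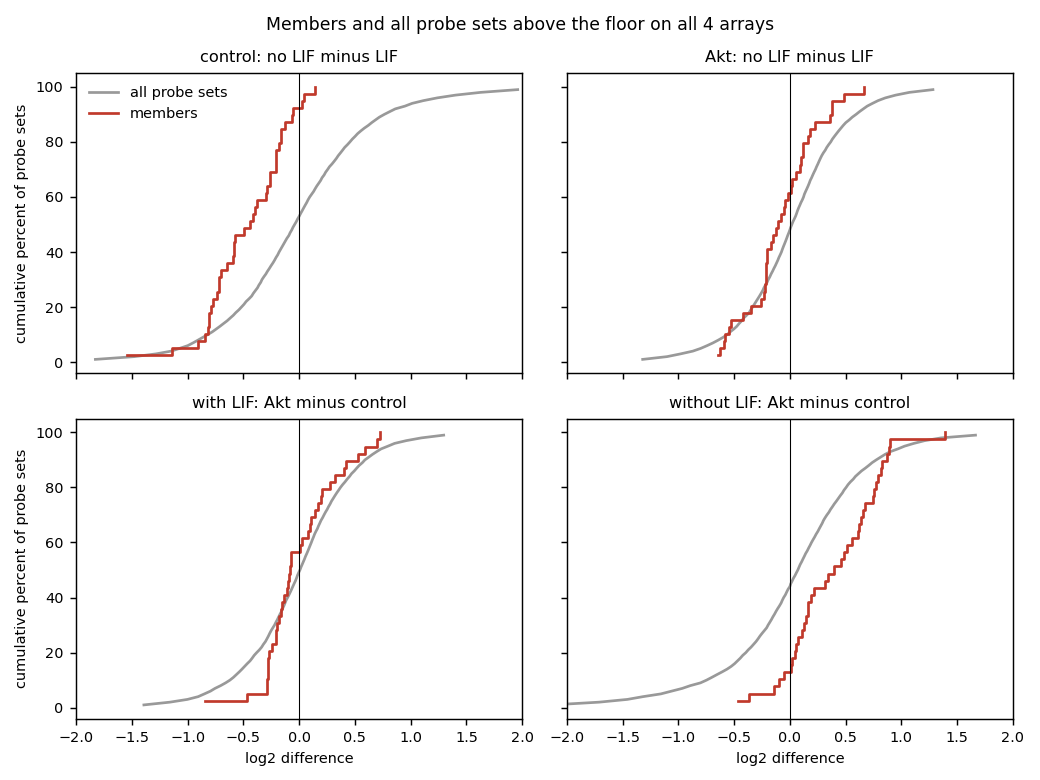
Cumulative percent of probe sets by log2 difference in the 4 comparisons, for 39 members (step line) and all 6511 probe sets above the floor on all 4 arrays (smooth line, its 1st to 99th percentile). The member curve lies left of the other after LIF withdrawal in control cells (median -0.44 against -0.04) and right of it for Akt against control without LIF (0.40 against 0.07).

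The order of the 4 arrays was read directly for the 39 probe sets above the floor on all of them. The control array without LIF held the lowest value for 30 of 39 members (76.9%), where it did so for 37.6% of all 6511 probe sets. The highest value lay on the control array with LIF for 15 members, on the array of Akt cells with LIF for 14, on that of Akt cells without LIF for 8 and on the control array without LIF for 2. By role, the control array without LIF was lowest for 8 of 8 licensing and helicase, 7 of 9 polymerase and fork, 8 of 9 mitotic kinase and checkpoint, and 0 of 3 chromosome and spindle probe sets. The same array has the lowest actin ratio, the highest Gapdh ratio and the marker sums given above.

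**Figure D4:**
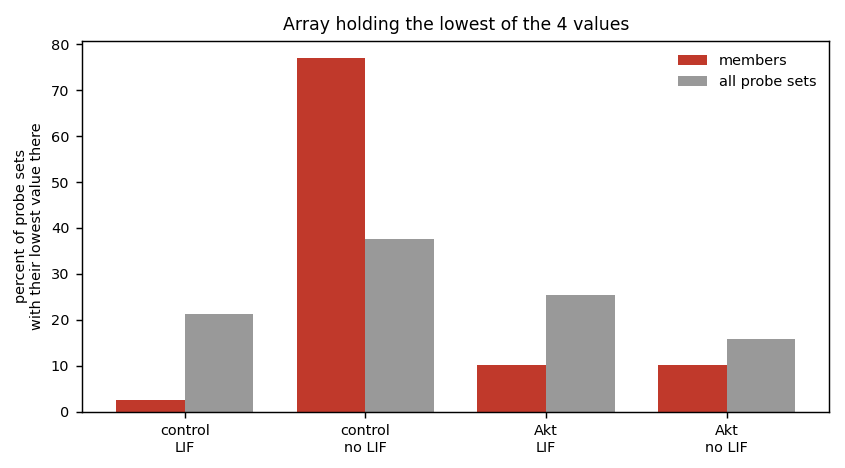
Percent of probe sets whose lowest of 4 values lies on each array, for 39 members and for all 6511 probe sets above the floor on all arrays. The control array without LIF holds 76.9% of the members and 37.6% of all probe sets.

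An additive limma fit tested the differences common to both lines or both media, over 8417 probe sets, and the difference between the responses of the lines serves as the error. For LIF withdrawal over both lines, 0 of 47 members passed an adjusted p of 0.05, as did 0.0% of all probe sets. At an unadjusted p under 0.05 there were 0 members, against 7.70% of all probe sets. The lowest adjusted p of a member in this limma fit was 0.643, for Aurka, which was lower in both lines of cells. For Akt against control over both media, 0 of 47 members passed and 0.0594% of all probe sets did. At an unadjusted p under 0.05 there were 2 members, Prim2 and the dimmer probe set of Cdk4, or 4.26% against 8.22%. Prim2, higher in Akt cells in both media, had a limma adjusted p of 0.517. A p that misses the threshold does not show that the values did not differ.

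Other genes of replication were read from a list of 38 symbols, 32 of which had a probe set. After LIF withdrawal in control cells 6 of 35 probe sets (17.1%) passed 2-fold downward and none upward, and the median was -0.49, against 6.19% and -0.02 over all probe sets. The 4 furthest were the clamp loader subunit Rfc5 (2.42-fold, at 745.5 and 308.5), the origin recognition subunit Orc5 (2.31-fold), the polymerase epsilon subunit Pole2 (2.28-fold) and the ribonuclease subunit Rnaseh2a (2.21-fold). Rnaseh2a was dim, at 51.2 and 23.1. Other probe sets of Rfc5 and Orc5 gave 0.28 and 0.00. The 0.00 is the value that results when both arrays are set to the floor. In Akt cells none of 34 was 2-fold different, where 3.51% of all probe sets were lower and 2.87% higher. The median there was 0.08, against 0.01 over all probe sets. Without LIF, 2 of 35 probe sets (5.71%) were 2-fold higher in Akt than in control cells and none lower, against 5.59% and 7.85% of all probe sets. They were Orc5 (2.07-fold) and Rpa2, which coats single strands (2.23-fold). Rpa2 was dim, at 27.1 and 26.3 in control cells and at 54.1 and 58.4 in Akt cells, so it was higher in Akt cells in both media. The median without LIF was 0.40 over the 35 probe sets, against 0.06 over all.

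Other mitosis genes, 39 with a probe set, had none of 43 probe sets 2-fold different after LIF withdrawal in either line. Over all probe sets 6.19% were lower and 7.19% higher in control cells, and 3.51% and 2.87% in Akt cells. The medians of the list were -0.21 in control cells and -0.24 in Akt cells, against -0.02 and 0.01 over all probe sets. At 1.5-fold 8 (18.6%) were lower in control cells and 5 (11.6%) in Akt cells, near the 17.1% and 10.5% of all probe sets. Between the lines with LIF none of 43 passed 2-fold, against 3.28% higher and 3.51% lower over all probe sets. Without LIF 1 of 43 (2.33%) was higher in Akt cells and none lower, against 5.59% and 7.85%. It was the cyclin gene Ccnf, at 2.15-fold.

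Regulators of these genes were mixed. Of 18 probe sets for E2F, RB and related factors, 2 were 2-fold lower and none was higher after LIF withdrawal in control cells, around a median of -0.04. That is 11.1% of the list, against 6.19% of all probe sets lower and 7.19% higher. Mybl2, a Myb factor of the complex that acts on mitotic genes, was at 361 and 100.6 in control cells and at 544.6 and 253.1 in Akt cells. It was 3.59-fold and 2.15-fold lower without LIF, and its other probe set gave -0.36 and -0.31. A probe set of E2f1 was 2.01-fold lower in control cells, at 48.5 and 24.1, while its other probe set gave 0.01. In Akt cells 2 of 18 (11.1%) were 2-fold lower after withdrawal and none higher, against 3.51% and 2.87% of all probe sets. With LIF, 1 of 18 (5.56%) was 2-fold higher in Akt than in control cells and none lower, against 3.28% and 3.51%. Rb1, the retinoblastoma gene, was 3.13-fold higher in Akt than in control cells with LIF and 2.24-fold lower in Akt cells after withdrawal. Its other probe set gave log2 differences of 0.89 and -0.87, short of 2-fold. Between the lines without LIF, 1 of 18 probe sets was 2-fold higher in Akt cells and 1 lower, or 5.56% each. The shares over all probe sets were 5.59% and 7.85%. The lower one was Rbl1, the Rb1 relative p107, at 2.65-fold. Mybl2 was 2.52-fold higher, and its other probe set gave -0.09.

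Inhibitors of cyclin-dependent kinases had no probe set 2-fold different after LIF withdrawal in either line. Over all probe sets 7.19% were higher and 6.19% lower in control cells, and 2.87% and 3.51% in Akt cells. The median of the list in control cells was 0.37, with 6 of 8 probe sets above 0, and in Akt cells 0.10 over 9. Over all probe sets the medians were -0.02 and 0.01. At 1.5-fold 3 of 8 (37.5%) were higher in control cells and none lower, against 16.2% and 17.1% of all probe sets. With LIF, 1 of 9 probe sets (11.1%) was 2-fold higher in Akt than in control cells and none lower, against 3.28% and 3.51% of all. This was Cdkn1a, which encodes p21, 2.30-fold higher in Akt cells, at 195.3 against 84.8. Its other probe set differed by 0.68. Without LIF the brighter one was at 167.9 in control cells, just short of 2-fold above its value with LIF, and at 165.6 in Akt cells.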

How the data were processed

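Total RNA was measured on 4 arrays, 1 per group. The authors deposited 1 linear intensity for each probe set, with software and scaling not given in the sources used here. Their 2% trimmed means ran from 79.9 to 120.6. Quantile normalization (limma 3.58.1, R 4.3.3) left out array controls and covered 12422 probe sets, followed by a floor at the 40th percentile and log2. Precision is limited by the number of arrays.

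Of these probe sets 10833 had 1 symbol in the platform annotation, 396 several and 1193 none. Gene identifiers matched a RefSeq table for 10817, which gave current symbols. A difference was taken where either array was above the floor, counted at 2-fold. The additive limma fit (line and medium, two-sided, Benjamini-Hochberg) had 1 residual and 5.56 prior degrees of freedom, and its p-values cover only the spread of these arrays. Its steps were run on simulated data with the noise of the closest pair of arrays and effects equal in both lines. That setting is milder than these arrays, so it does not show what the fit can find here. All 36 genes are named, mostly by their brightest probe set; other listed genes are named only at 2-fold, at most the 4 furthest per list and comparison. Members and lists were chosen with earlier results of these data known. Promoters are RefSeq's. Other scalings, floors, a pseudocount of 16, probe set choices and variance models were tried.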

Additional observations from a re-analysis of the deposited data

Results flagged for a closer look

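Rrm1 and Pold2 moved in opposite directions after LIF withdrawal in the lines, by amounts that differ at least 2-fold. For Rrm1 the log2 response was 0.36 in Akt and -0.65 in control cells, a difference of 1.01. Under other processing settings its response in Akt cells fell to 0.01 at the lowest. For Pold2 the responses were 0.11 and -1.55, a difference of 1.66, and the direction in Akt cells turned negative with scaling to the hybridization controls. The SD between probe sets of 1 gene was 0.34 for LIF withdrawal in Akt cells. Both differences contain the control array without LIF, and each line has 1 array per medium, so they were not tested.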

How the results depend on the processing

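No paired analysis was possible because each group has 1 array and the labels give no replicate numbers; for the same reason no replicate could be left out. After LIF withdrawal in control cells, 2 member probe sets were at least 2-fold lower; the count was 12 with scaling to the hybridization controls and 12 unscaled, 1 with only plain _at probe sets (which drops Pold2) and 17 at 1.5-fold. The median stayed between -0.72 and -0.38. In Akt cells the counts of 0 became 2 higher with a floor at the 20th percentile, 1 lower with the hybridization controls, and 1 higher and 4 lower at 1.5-fold, and the median of -0.05 became -0.43 with the hybridization controls. For Akt against control with LIF the counts of 0 became 3 lower with the floor at the 20th percentile, 1 lower unscaled, and 3 higher and 2 lower at 1.5-fold, and the median of -0.09 became -0.64 unscaled. Without LIF the 1 higher became 2 with the floor at the 20th percentile, 0 with plain _at probe sets and 15 at 1.5-fold, and the 0 lower became 1 with the floor at the 20th percentile. The median ran from 0.03 to 0.40. The causes were not tested.

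Scaling shifted all probe sets together. The share of higher among all 2-fold probe sets was 53.8% after withdrawal in control cells, 29.6% with the hybridization controls and 30.6% unscaled. In Akt cells it was 45.0%, against 13.8% with the hybridization controls. For Akt against control with LIF it was 48.3%, against 59.6% with the hybridization controls and 6.22% unscaled, and without LIF 41.6%, against 17.5% unscaled. Relative to the median of all probe sets above the floor on all arrays, the members in control cells lay at -0.40, and at -0.47, -0.48 and -0.46 with trimmed mean scaling, the hybridization controls and no scaling. In Akt cells the same values were -0.12, -0.16, -0.17 and -0.16. The median over members above the floor on all 4 arrays and the 1.5-fold counts were added after the data were seen. No member was called by limma under any of the 10 alternatives run, though the calls over all probe sets for LIF withdrawal rose from 0 to 191 with the pseudocount.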

Other observations

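Genes of the DNA damage checkpoint had a median log2 difference of -0.63 over 12 probe sets after LIF withdrawal in control cells, with 2 at least 2-fold lower (16.7%) and none higher. Over all probe sets the median was -0.02 and 6.19% were 2-fold lower. In Akt cells the median of the list was 0.07. There 1 of 12 (8.33%) was 2-fold lower and none higher, against 3.51% and 2.87% of all probe sets. Rad1, a subunit of the checkpoint clamp, was at 159.9 and 55.3 in control cells and at 126.2 and 135 in Akt cells, 2.89-fold lower in control cells. Trp53bp1, a protein of DNA break repair, was at 179.7 and 88.4 in control cells and at 73.1 and 145.4 in Akt cells. Hus1, another clamp subunit, was 2.08-fold lower in Akt cells without LIF than with it. Its other 2 probe sets gave 0.00, the value that results when both arrays are set to the floor, so they are no measured disagreement. Of 3 histone probe sets, 1 (33.3%) was 2-fold higher in Akt than in control cells with LIF, against 3.28% of all probe sets. This was the linker histone gene H1f2, 3.28-fold higher, at 132.9 against 40.5.

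Members with an E2F-type element had a median of -0.62 after LIF withdrawal in control cells over 14 genes, and those without one -0.42 over 17. The gaps were similar for the other elements, at -0.54 with and -0.42 without a CHR-type element, and -0.54 with and -0.38 without CCAAT. In Akt cells the medians for the E2F-type element were -0.12 with and -0.15 without, and for the CHR-type element -0.18 and -0.11. For CCAAT they were -0.21 with, over 22 genes, and 0.12 without, over 9. These are values of promoters that differ in other elements too, with no test.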
